A study of Saccharomyces cerevisiae with 12 samples.

Results

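The genes described here are 47 genes of amino acid biosynthesis in Saccharomyces cerevisiae, of 5449 genes tested in the whole series. They are GCN4, which encodes the activator of these pathways, and 46 genes for enzymes. The enzymes belong to the pathways of histidine (6 genes), arginine (6), lysine (6), the branched chain amino acids leucine, isoleucine and valine (10), threonine (5), the aromatic amino acids (9), serine (2) and asparagine (2). Members were taken by gene symbol, with 1 probe set for each gene, and all 47 had exactly 1. The rule itself uses no measured value, though the genes were proposed with earlier results of these data known.

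RNA was compared on Affymetrix Yeast Genome 2.0 arrays between H2B R95A, in which alanine replaces arginine at position 95 of histone H2B, and H2B WT. Exponential cultures of each strain were untreated or were given rapamycin, an inhibitor of the TOR kinases, at 200 ng/ml for 30 min. The 4 groups, R95A with rapamycin, R95A untreated, WT with rapamycin and WT untreated, held 3 arrays each. Both strains come from a histone library made in the MATa strain FY406, and both lack the 2 chromosomal pairs of H2A and H2B genes, (hta1-htb1)Δ::LEU2 and (hta2-htb2)Δ::TRP1. They share background mutations in HIS3, LEU2, URA3, TRP1 and LYS2, and carry H2A and H2B on a single copy plasmid with a HIS marker. Each genotype is 1 library strain, and the medium of these cultures is not given in the sources used here. The sources do not say whether the 3 arrays of a group came from separate cultures, so p-values measure only the spread between these arrays, which may be technical.

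Gcn4 is a transcription factor of the bZIP family that binds upstream of amino acid biosynthesis genes in nearly every pathway, a system known as general amino acid control. Its synthesis is controlled mainly in translation: when amino acids run short, the kinase Gcn2 phosphorylates the initiation factor eIF2, and ribosomes then reach the GCN4 reading frame past short upstream reading frames. The mRNA level of GCN4 therefore need not follow the activity of the protein. Single pathways also have regulators of their own, such as Leu3 for leucine and the ArgR complex for arginine, and several enzymes of a first step are inhibited by their end product.

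Signals are log2 values after RMA (robust multi-array average), and the median signal of an array lay between 7.25 and 7.30. HTB1, the H2B gene that the plasmid carries, lay between 12.16 and 12.40 on R95A arrays and between 11.98 and 12.39 on WT arrays, which does not tell the 2 alleles apart. HIS3, the plasmid marker, lay between 10.68 and 11.92 on R95A arrays and between 10.11 and 11.42 on WT arrays. The mean signal of 5 a-specific genes, which mark MATa cells, was between 4.61 and 5.64 on R95A arrays and between 8.56 and 10.29 on WT arrays, and that of 4 alpha-specific genes was between 3.48 and 3.89 against 4.38 and 4.97. Between the untreated strains the median log2 fold change of the a-specific genes was -4.67. Values were negative for 5 of 5, where 54.8% of all tested probe sets were negative. Limma called 4 lower (0.364% of probe sets) and cyber-T 5 (0.455%). On the a-specific genes the R95A arrays thus went against the MATa label. With 1 strain for each genotype this cannot be told apart from the substitution, and each difference given between R95A and WT is one between the strains so labelled. The replicate 1 arrays stood apart in every group, since 12 glucose-repressed genes averaged between 10.29 and 10.61 on those 4 arrays and between 5.76 and 8.19 on the other 8. With 3 arrays against 3, an exact permutation test cannot give a p below 0.1.

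Every one of the 47 genes had a mean signal over the arrays above 1.37, the 95th percentile of the 1746 probe sets for S. pombe on the same arrays. The lowest was 4.98. Averaged over the 47 genes, the signal was 8.14, 8.12 and 7.58 on the 3 R95A arrays with rapamycin and 8.26, 8.89 and 8.62 on those of untreated R95A. It was 8.17, 7.88 and 7.71 on the 3 WT arrays with rapamycin and 8.24, 8.30 and 7.61 on those of untreated WT. Replicates 2 and 3 of untreated R95A thus held the highest means of the 12 arrays, and replicate 3 of R95A with rapamycin, of WT with rapamycin and of untreated WT the lowest. Replicate 1 lay between 8.14 and 8.26 in all 4 groups.

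**Figure D1:**
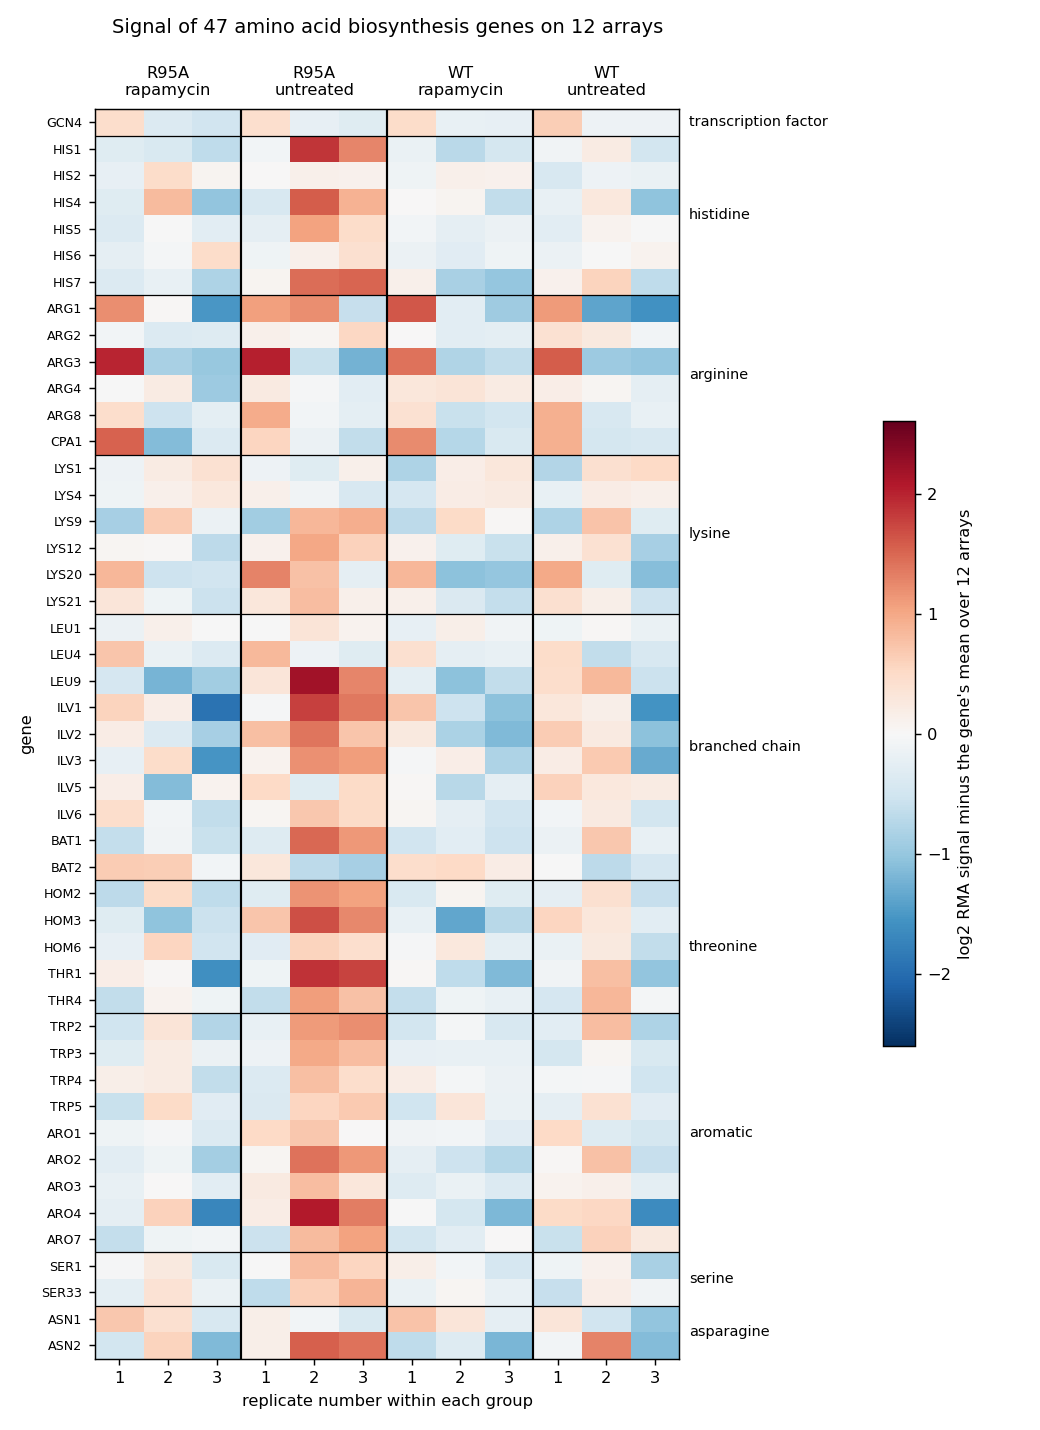
Signal of each of the 47 genes (rows, by pathway) on each of the 12 arrays (columns, 3 replicates in each of the 4 groups), as the log2 RMA signal minus the mean of that gene over the 12 arrays, red for above and blue for below. Replicates 2 and 3 of untreated R95A are red through most pathways, and replicate 1 is red in all 4 groups for ARG3, ARG8, CPA1, LYS20 and LEU4.

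GCN4 itself had nearly the same signal in all 4 groups. Its values for replicates 1, 2 and 3 were 11.69, 10.88 and 10.74 in R95A with rapamycin and 11.67, 11.02 and 10.92 in untreated R95A. In WT they were 11.70, 11.04 and 11.01 with rapamycin and 11.87, 11.10 and 11.10 untreated. The 4 replicate 1 arrays were above the other 8, so that any 2 groups had to overlap. The replicate number carried 92.6% of the sum of squares of GCN4 over the arrays, the group 6.04% and the rest 1.35%. The log2 fold change of GCN4 was -0.15 (95% interval -0.89 to 0.59) between the untreated strains and -0.15 (-0.89 to 0.59) between the strains with rapamycin. With rapamycin it was -0.10 (-0.84 to 0.64) in R95A and -0.10 (-0.84 to 0.63) in WT. These intervals come from the fit without a replicate block, so they include the offset of replicate 1. With the block the limma adjusted p of GCN4 was 0.4445 between the untreated strains. It was 0.549 for rapamycin in R95A and 0.833 in WT. Between arrays 1, 2 and 3 of the same number, R95A differed from WT by -0.20, -0.08 and -0.18 untreated and by -0.02, -0.16 and -0.27 with rapamycin. Of all tested probe sets 17.1% and 13.8% were negative in all 3. Rapamycin differed from untreated by 0.02, -0.14 and -0.18 in R95A. In WT it did so by -0.16, -0.06 and -0.09, where 17.5% of probe sets were negative in all 3.

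The first comparison asked how the 2 strains differed before treatment. Among untreated cultures, 40 of the 47 genes had a higher mean in R95A than in WT and 7 a lower one, where 45.2% of all tested probe sets were higher and 54.8% lower. The median log2 fold change of the genes was 0.50, against -0.04 over all tested probe sets. All genes of the histidine (median 0.75), threonine (0.77), aromatic (0.51), serine (0.60) and asparagine (0.65) pathways had positive values, 8 of 10 did in the branched chain pathway (0.58), and 4 of 6 each in the arginine (0.08) and lysine (0.41) pathways. No gene passed the test, a Benjamini-Hochberg adjusted p under 0.05 from limma over all 5498 tested probe sets, which 0.0364% of probe sets passed as higher and 0.364% as lower. Cyber-T, the test of the study's methods, also called 0 of the 47, where it called 0.0364% of probe sets as higher and 0.455% as lower.

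At an unadjusted p under 0.05 from limma, 6 genes were higher in untreated R95A, HIS1, HIS7, HOM3, TRP3, ARO3 and SER1, where 1.76% of the tested probe sets were, and 0 were lower, where 3.16% were. In 4 genes, HIS2, ILV2, HOM3 and ARO3, all 3 arrays of R95A lay above all 3 of WT, which 2.69% of probe sets did, and in 0 they lay below, which 4.22% did. At the study's threshold of at least a 2-fold change with an unadjusted p of at most 0.01, here from limma, 0 were higher, which 0.164% of probe sets were, and 0 lower, which 0.8% were.

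The 3 largest positive values were those of ILV1, ARO4 and THR1. ILV1 encodes threonine deaminase, the first step towards isoleucine, and had a signal of 7.32, 9.14 and 8.73 in untreated R95A and 7.65, 7.50 and 5.80 in untreated WT. Replicate 1 of R95A lay below 2 of the WT arrays, and the log2 fold change was 1.41 with a standard error (SE) of 0.76 (limma adjusted p = 0.733). ARO4, a DAHP synthase at the entry to the aromatic pathway, had 7.75, 9.62 and 8.89 in untreated R95A and 8.06, 8.10 and 5.93 in untreated WT, which gave a log2 fold change of 1.39 (SE 0.72, limma adjusted p = 0.733). THR1, the homoserine kinase, had 7.50, 9.50 and 9.38 in untreated R95A and 7.53, 8.40 and 6.59 in untreated WT, a log2 fold change of 1.28 (SE 0.65, limma adjusted p = 0.733). In each of the 3 genes replicates 2 and 3 of R95A were above all WT arrays, replicate 1 of R95A was not, and replicate 3 of WT was the lowest of the 6 arrays.

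HOM3, the aspartate kinase that opens the threonine and methionine branch, had 7.18, 8.13 and 7.72 in untreated R95A and 7.03, 6.76 and 6.19 in untreated WT, with no overlap. Its log2 fold change was 1.02 (95% interval 0.24 to 1.80, adjusted p = 0.733 from limma). HIS1, the ATP phosphoribosyltransferase of the first step to histidine, had 6.88, 8.81 and 8.22 in untreated R95A and 6.86, 7.16 and 6.47 in untreated WT, and its replicate 1 array in R95A lay among those of WT. Its log2 fold change was 1.14 (95% interval 0.25 to 2.03, adjusted p = 0.733 from limma).

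The lowest values belonged to lysine genes and GCN4. LYS4, the homoaconitase, had 8.82, 8.61 and 8.28 in untreated R95A and 8.50, 8.89 and 8.84 in untreated WT, a log2 fold change of -0.17 (SE 0.24, limma adjusted p = 0.837). LYS1, the saccharopine dehydrogenase of the last step to lysine, had 8.47, 8.29 and 8.74 in untreated R95A and 7.85, 9.03 and 9.13 in untreated WT, a log2 fold change of -0.17 (SE 0.37, limma adjusted p = 0.898). Both overlapped between the strains.

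The size of this difference was not the same in the 3 replicate numbers. The median difference of the 47 genes between same-numbered arrays of untreated R95A and untreated WT was 0.01 for replicate 1, 0.52 for replicate 2 and 0.98 for replicate 3. Whether the number pairs these arrays is not known. For replicate 3 the deviations from the group means correlated at 0.06 between the untreated strains. Without replicate 1 of untreated R95A the median log2 fold change was 0.83 and 2 genes passed the limma test as higher, HIS1 (1.68, adjusted p = 0.0235) and TRP3 (1.16, adjusted p = 0.0415), a bifunctional enzyme of tryptophan synthesis, where 1.07% of all tested probe sets passed in either direction. Without replicate 2 of untreated R95A the median was 0.29, and without replicate 3 of untreated WT it was 0.33. The mean signal of the 12 glucose-repressed genes was 10.46, 5.88 and 5.76 in untreated R95A and 10.29, 6.48 and 7.31 in untreated WT. Their log2 fold changes between the untreated strains were negative for 12 of 12 with a median of -0.70. Those of 8 stress genes were negative for 8 of 8 with a median of -0.34, where 54.8% of all tested probe sets were negative. The genes of a list share the same arrays. The standard errors ran between 0.68 and 2.41 for the glucose-repressed genes and between 0.18 and 0.60 for the stress genes. The part of both lists in the result was not tested.

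**Figure D2:**
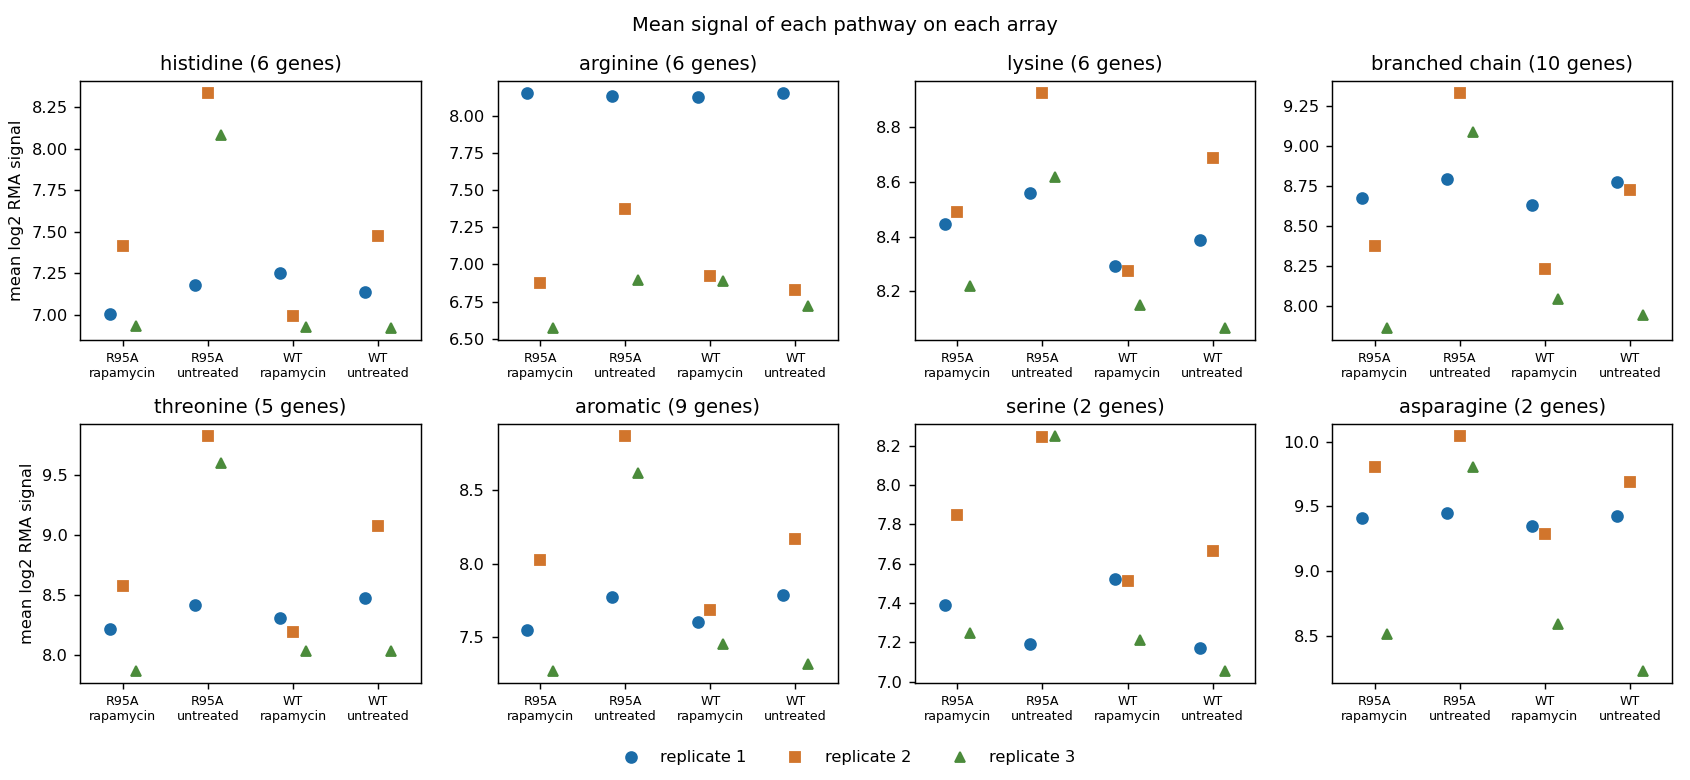
Mean log2 RMA signal of the genes of each pathway (panels, with the number of genes) on each array (points, shaped and coloured by replicate number) in the 4 groups. In the histidine, threonine and aromatic panels replicates 2 and 3 of untreated R95A are the highest points, and in the arginine panel the 4 replicate 1 arrays, at 8.12 to 8.15, lie above the other 8, at 6.57 to 7.37.

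The second comparison asked what rapamycin did in R95A. In that strain 41 of the 47 genes had a lower mean with rapamycin than untreated, where 40.2% of all tested probe sets did and 59.8% had a higher one, and the median log2 fold change was -0.59, against 0.10 over all tested probe sets. The medians were -0.92 for threonine, -0.86 for the branched chain pathway, -0.75 for histidine, -0.63 for the aromatic pathway, -0.52 for asparagine, -0.47 for lysine, -0.40 for serine and -0.27 for arginine. The 6 genes with positive values were BAT2, ASN1, LYS1, LYS4, CPA1 and HIS2. By limma 0 of the 47 passed the test in either direction, as did 0% of all tested probe sets. By cyber-T 5 genes passed as lower, HIS1, HIS7, LEU9, ILV2 and HOM3, which 4.38% of probe sets did, and 0 as higher, which 0.236% did.

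At an unadjusted p under 0.05 from limma, 14 genes were lower with rapamycin, where 10.2% of tested probe sets were, and 1 was higher, BAT2, where 7.15% were. The 14 were HIS1, HIS5, HIS7, ARG2, LEU9, ILV2, BAT1, HOM3, THR1, TRP3, ARO2, ARO3, ARO4 and ASN2. At the study's threshold applied to the limma p, 5 were lower, HIS1, HIS7, LEU9, HOM3 and ARO2, which 4.73% of probe sets were, and 0 higher, which 0.418% were. With the p of cyber-T, the study's own test, 11 of the 47 met that threshold in either direction, as did 7.88% of probe sets. In 10 genes all 3 rapamycin arrays lay below all 3 untreated ones, HIS1, HIS7, ARG2, LYS12, LEU9, ILV2, HOM3, ARO1, ARO2 and ARO3, which 9.37% of probe sets did, and in 0 they lay above, which 8.51% did.

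LEU9 and HOM3 had the 2 largest values. LEU9, the second alpha-isopropylmalate synthase, which starts the leucine branch, had a signal of 4.99, 4.21 and 4.52 in R95A with rapamycin and 5.74, 7.59 and 6.69 in untreated R95A. The groups did not overlap, and the mean was 4.29-fold lower with rapamycin (log2 fold change -2.10, SE 0.47, limma adjusted p = 0.0941 and 0.00560 from cyber-T). HOM3 had 6.14, 5.42 and 5.90 in R95A with rapamycin and 7.18, 8.13 and 7.72 in untreated R95A. Again the groups did not overlap, and the mean was 3.62-fold lower with rapamycin (log2 fold change -1.86, SE 0.35, limma adjusted p = 0.0941 and 0.00186 from cyber-T).

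THR1, with the third largest value, had 7.79, 7.64 and 6.03 in R95A with rapamycin and 7.50, 9.50 and 9.38 in untreated R95A. Its untreated replicate 1 array lay below 2 of the rapamycin arrays, and the log2 fold change was -1.64 (SE 0.65, limma adjusted p = 0.231). ARO4, with a value of the same size, had 7.33, 8.16 and 5.86 in R95A with rapamycin and 7.75, 9.62 and 8.89 in untreated R95A, and its untreated replicate 1 array lay below the highest rapamycin array (-1.64, SE 0.72, limma adjusted p = 0.274).

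In the histidine pathway HIS1 had 6.63, 6.56 and 6.28 in R95A with rapamycin and 6.88, 8.81 and 8.22 in untreated R95A, a log2 fold change of -1.48 (SE 0.41, limma adjusted p = 0.124 and 0.0340 from cyber-T). HIS7, which builds the imidazole ring, had 5.70, 5.88 and 5.25 in R95A with rapamycin and 6.14, 7.51 and 7.57 in untreated R95A, a log2 fold change of -1.46 (SE 0.45, limma adjusted p = 0.150 and 0.0241 from cyber-T). In both genes the 3 rapamycin arrays lay below the 3 untreated arrays, and the untreated replicate 1 array was the closest to them. ILV2, the catalytic subunit of acetolactate synthase, had 8.47, 7.92 and 7.42 in R95A with rapamycin and 9.06, 9.67 and 9.01 in untreated R95A, a log2 fold change of -1.31 (SE 0.48, limma adjusted p = 0.200 and 0.0422 from cyber-T).

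BAT2, the cytosolic branched chain aminotransferase, which also takes part in the breakdown of these amino acids, had the highest positive value. It had 11.17, 11.16 and 10.46 in R95A with rapamycin and 10.81, 9.84 and 9.65 in untreated R95A, with overlap through replicate 3 of the treated and replicate 1 of the untreated arrays. Its log2 fold change was 0.83 (SE 0.32, limma adjusted p = 0.222). ASN1, an asparagine synthetase, had 10.56, 10.29 and 9.44 in R95A with rapamycin and 10.01, 9.80 and 9.46 in untreated R95A (0.34, SE 0.39, limma adjusted p = 0.674). LYS1 had 8.48, 8.82 and 9.01 in R95A with rapamycin and 8.47, 8.29 and 8.74 in untreated R95A (0.27, SE 0.37, limma adjusted p = 0.731), and both genes overlapped between the groups.

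The limma count for R95A depended on single arrays. Without replicate 1 of untreated R95A, 12 genes passed the test: HIS1, HIS5, HIS7, LEU9, BAT1, HOM2, HOM3, THR1, TRP3, ARO2 and ARO7 as lower and BAT2 as higher. In the same fit 13.2% of all tested probe sets passed in either direction, against 0% with all arrays. In that fit LEU9 had a log2 fold change of -2.57 and HOM3 one of -2.10, both with an adjusted p = 0.0207 from limma, and BAT2 one of 1.19 with an adjusted p = 0.0267. Without replicate 3 of untreated WT, which enters only through the shared variance, LEU9 and HOM3 passed (adjusted p = 0.0397 and 0.0353 from limma), as did 2.13% of probe sets. Without all 4 replicate 1 arrays, an alternative chosen after the values were seen, 10 genes passed, 9 as lower and BAT2 as higher, and 13% of probe sets did in either direction. Within replicate numbers 1, 2 and 3 the median difference of the 47 genes was -0.14, -0.77 and -0.95. Whether the number pairs these arrays is not known, and for replicate 3 their deviations from the group means correlated at 0.01. The mean signal of the glucose-repressed genes was 10.61, 7.03 and 8.19 in R95A with rapamycin and 10.46, 5.88 and 5.76 untreated. Their log2 fold changes were positive for 12 of 12 with a median of 1.26. Those of the stress genes were positive for 8 of 8 with a median of 0.49, where 59.8% of all tested probe sets were positive. The standard errors ran between 0.68 and 2.41 for the glucose-repressed genes and between 0.18 and 0.60 for the stress genes. The part of both lists in these values was not tested.

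**Figure D3:**
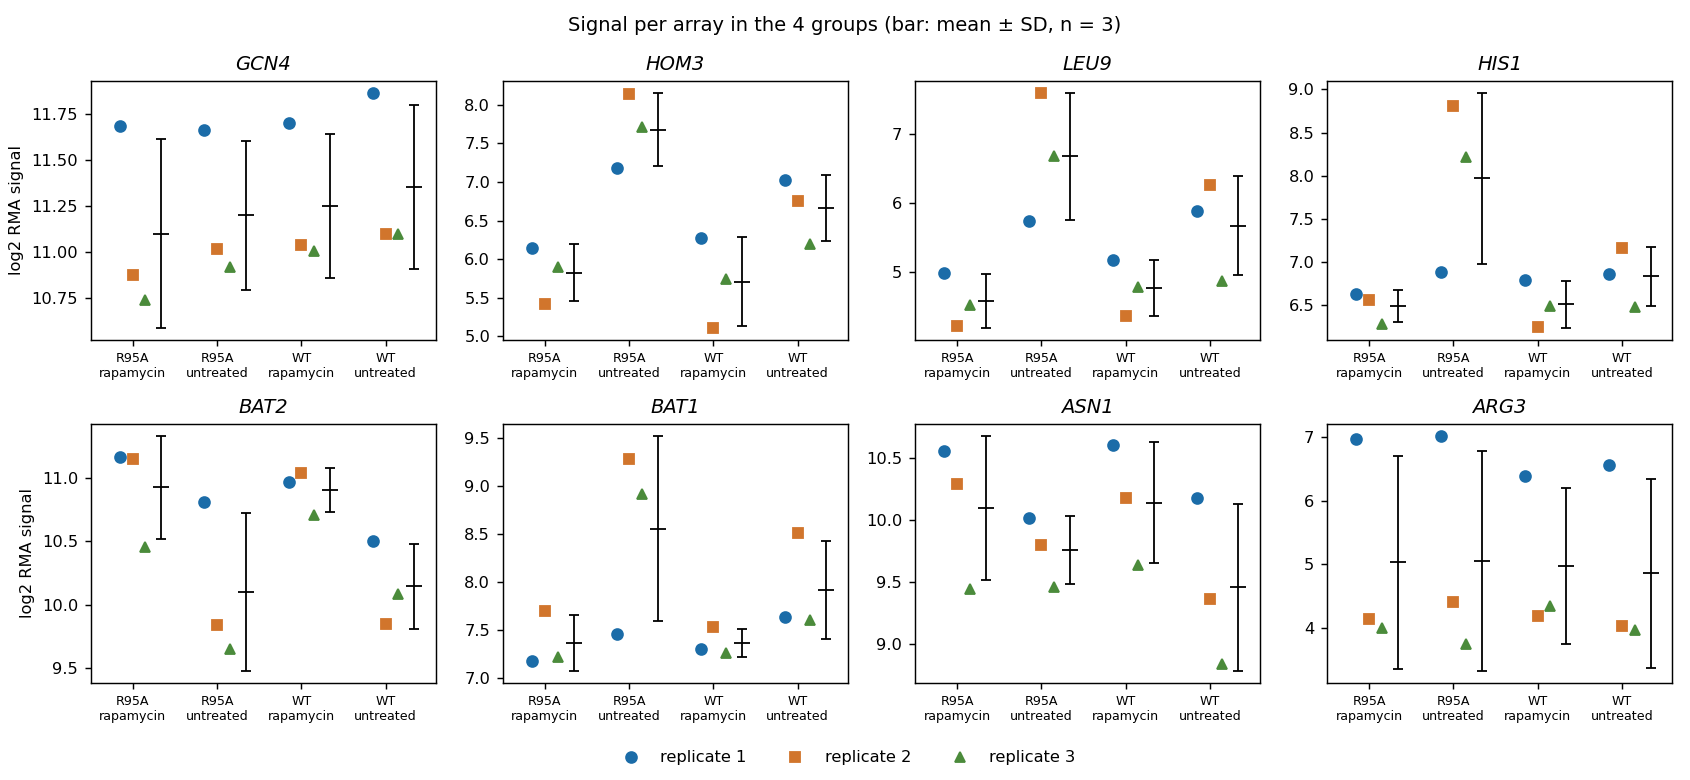
Log2 RMA signal of 8 genes (panels) on each array (points, shaped and coloured by replicate number) in the 4 groups, with the mean and SD of 3 arrays as a bar. HOM3 and LEU9 in R95A with rapamycin lie below all untreated R95A arrays, BAT2 in WT with rapamycin lies above all untreated WT arrays, and GCN4 and ARG3 are split by replicate 1 in every group.

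The third comparison asked the same in WT. There 30 of the 47 genes had a lower mean with rapamycin and 17 a higher one, where 43.7% of all tested probe sets were lower and 56.3% higher. The median log2 fold change was -0.10, against 0.04 over all tested probe sets, with -0.42 for threonine, -0.23 for the aromatic pathway and between -0.16 and 0.12 for the others. By limma 0 of the 47 passed the test in either direction, as did 0% of all tested probe sets. Cyber-T also called 0 of the 47, against 0.127% of probe sets as higher and 0% as lower. At an unadjusted p under 0.05 from limma 1 gene was higher, BAT2, where 0.837% of probe sets were, and 1 was lower, HOM3, where 3.44% were. In 3 genes, HIS2, ARG4 and BAT2, all rapamycin arrays lay above all untreated ones, which 3.97% of probe sets did, and in 2, ILV5 and BAT1, they lay below, which 3.73% did.

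HOM3 and LEU9 again had the lowest values. HOM3 had 6.27, 5.11 and 5.75 in WT with rapamycin and 7.03, 6.76 and 6.19 in untreated WT, a log2 fold change of -0.95 (SE 0.35, limma adjusted p = 1.00). LEU9 had 5.16, 4.35 and 4.78 in WT with rapamycin and 5.88, 6.26 and 4.87 in untreated WT, a log2 fold change of -0.91 (SE 0.47, limma adjusted p = 1.00). In both genes the groups overlapped by a single array, replicate 1 with rapamycin against replicate 3 untreated. ASN2, the other asparagine synthetase, had 8.08, 8.40 and 7.55 in WT with rapamycin and 8.68, 10.02 and 7.62 in untreated WT (-0.76, SE 0.61, limma adjusted p = 1.00).

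BAT2 had 10.97, 11.04 and 10.71 in WT with rapamycin and 10.50, 9.85 and 10.08 in untreated WT, with no overlap. Its log2 fold change was 0.76 (95% interval 0.06 to 1.47, adjusted p = 1.00 from limma). ARG1, the argininosuccinate synthetase, had 9.27, 7.38 and 6.73 in WT with rapamycin and 8.75, 6.28 and 6.08 in untreated WT (0.76, SE 0.91), and its groups overlapped. ASN1 had 10.61, 10.18 and 9.63 in WT with rapamycin and 10.18, 9.36 and 8.84 in untreated WT (0.68, SE 0.39). ILV5, the acetohydroxyacid reductoisomerase, had 9.34, 8.59 and 9.09 in WT with rapamycin and 9.92, 9.59 and 9.52 in untreated WT, with all rapamycin arrays below all untreated ones (-0.67, SE 0.37).

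Same-numbered arrays of WT deviated together. Between arrays 1, 2 and 3 with the same number, ARG1 differed by 0.52, 1.10 and 0.65 with rapamycin and ASN1 by 0.43, 0.82 and 0.80, all higher. HOM3 differed by -0.76, -1.65 and -0.44 and LEU9 by -0.71, -1.91 and -0.09, all lower. Of the 47 genes 6 were higher with rapamycin in all 3 pairs and 15 lower, as were 23.5% and 17.5% of all tested probe sets. With the replicate number as a block, the limma adjusted p was 0.585 for ARG1, 0.367 for ASN1, 0.455 for HOM3 and 0.587 for LEU9. Within replicate numbers 1, 2 and 3 the median difference of the 47 genes in WT was -0.07, -0.31 and 0.08. Without replicate 3 of untreated WT the median log2 fold change was -0.31, and without replicate 2 of untreated WT it was 0.00. The glucose-repressed genes had a median of 0.19 (8 of 12 positive) and the stress genes one of 0.11 (7 of 8 positive) in the same comparison. There 56.3% of all tested probe sets were positive.

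**Figure D4:**
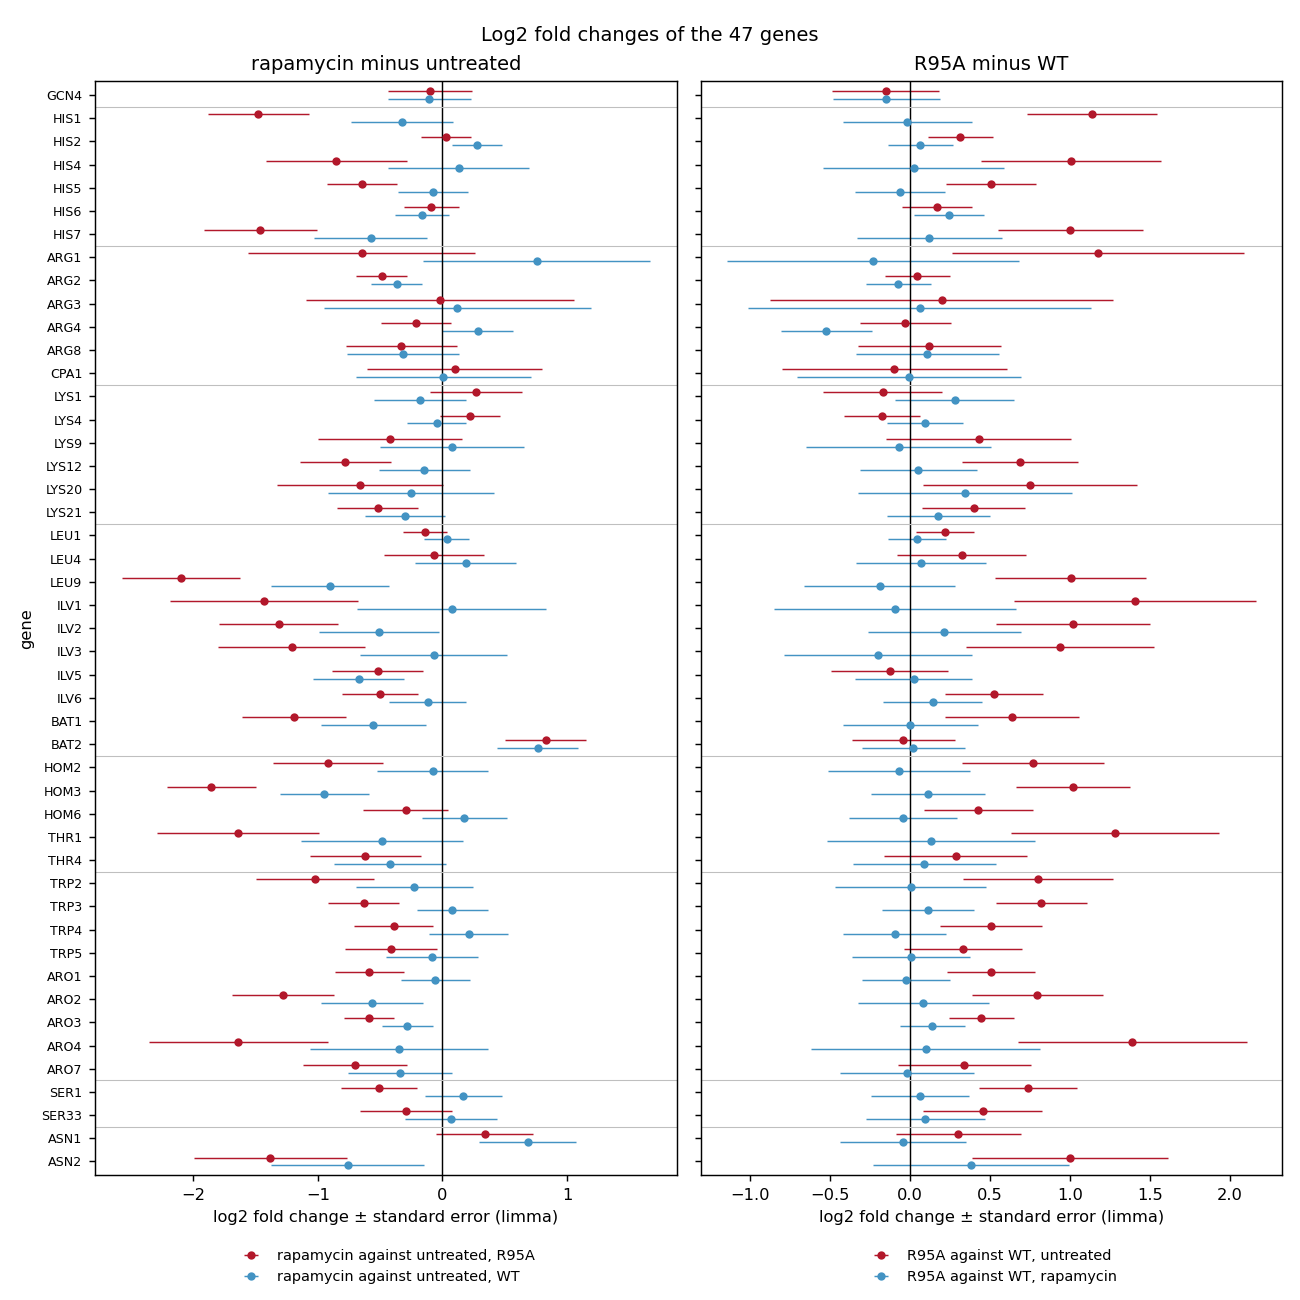
Log2 fold change of each of the 47 genes with its standard error from limma, for rapamycin minus untreated in R95A (red) and WT (blue) on the left, and for R95A minus WT in untreated (red) and rapamycin-treated (blue) cultures on the right. On the left 41 red points and 30 blue points lie below 0, and on the right 40 red points lie above 0 while the blue points lie between -0.52 and 0.38.

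The difference between the 2 rapamycin responses was tested directly. It was negative, that is lower in R95A, for 40 of the 47 genes, where 44% of all tested probe sets were negative, and its median was -0.49, against 0.05 over all tested probe sets. By limma 0 of the 47 passed the test and 0% of all probe sets did, with an adjusted p = 1.00 for every one of the 47, and 0 of them had an unadjusted p under 0.05. The lowest values were those of ILV1 (-1.50, SE 1.07), ARG1 (-1.40, SE 1.29) and ARO4 (-1.29, SE 1.01). For LEU9 the difference was -1.20 (95% interval -2.67 to 0.28), for HIS1 -1.16 (-2.42 to 0.11) and for HOM3 -0.91 (-2.01 to 0.20). The highest values were those of LYS1 (0.45, SE 0.53), LYS4 (0.27, SE 0.34) and ILV5 (0.15, SE 0.52). In the same comparison the glucose-repressed genes had positive values for 12 of 12 with a median of 1.16, and the stress genes for 8 of 8 with a median of 0.36. Their standard errors ran between 0.96 and 3.41 and between 0.25 and 0.85, and the genes of a list share the same arrays.

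The arrays behind these values were as follows. ILV1 had 7.93, 7.52 and 5.44 in R95A with rapamycin against 7.32, 9.14 and 8.73 untreated, and 8.08, 6.81 and 6.29 in WT with rapamycin against 7.65, 7.50 and 5.80 untreated. ARG1 had 8.85, 7.68 and 6.14 in R95A with rapamycin against 8.72, 8.86 and 7.05 untreated. Replicate 3 of R95A with rapamycin was the lowest of its group in both genes, and treated and untreated arrays overlapped in both strains. LYS4 had 8.58, 8.82 and 8.97 in R95A with rapamycin against 8.82, 8.61 and 8.28 untreated, and 8.26, 8.89 and 8.93 in WT with rapamycin against 8.50, 8.89 and 8.84 untreated. ILV5 had 9.49, 8.19 and 9.41 in R95A with rapamycin against 9.84, 9.0 and 9.81 untreated. ARO4 had 7.54, 7.11 and 6.39 in WT with rapamycin against 8.06, 8.10 and 5.93 untreated. The LYS4 and ILV5 signals of R95A, and those of ARO4 in WT, overlapped between treated and untreated arrays.

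The last comparison set the 2 strains side by side after rapamycin. The 47 genes had a median log2 fold change of 0.04, against 0.02 over all tested probe sets, with 30 positive and 17 negative values, where 53.9% of probe sets were positive. When arrays were centred on their spike-in probe sets, 1 was positive and 46 were negative, with a median of -0.32 against -0.35 over all tested probe sets. By limma 0 of the 47 passed the test (adjusted p = 1 for every one), against 0.0364% of probe sets as higher and 0.309% as lower, and 0 had an unadjusted p under 0.05, where 0.2% were higher and 1.31% lower. Cyber-T also called 0 of the 47, against 0.0728% and 0.473%. In 0 of the 47 were the arrays of the strains apart, which 1.64% of probe sets were as higher and 2.75% as lower. The treated groups also enter the comparisons of rapamycin with untreated cultures, so the 4 sets of values are not independent of each other. The glucose-repressed genes had a median of 0.33 (11 of 12 positive) and the stress genes one of 0.00 (4 of 8 positive).

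The values ran between -0.52 and 0.38. ARG4, the argininosuccinate lyase, had 9.39, 9.62 and 8.44 in R95A with rapamycin and 9.68, 9.73 and 9.61 in WT with rapamycin (-0.52, 95% interval -1.15 to 0.10). Replicate 3 of R95A was the lowest of the 6, and replicate 2 of R95A lay just above the lowest WT array. ARG1 (-0.23, SE 0.91) and ILV3, the dihydroxyacid dehydratase (-0.20, SE 0.59), had the next lowest values. ILV3 had 8.56, 9.23 and 7.23 in R95A with rapamycin and 8.73, 8.93 and 7.97 in WT with rapamycin.

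ASN2 had the highest value, with 8.27, 9.31 and 7.59 in R95A with rapamycin and 8.08, 8.40 and 7.55 in WT with rapamycin (0.38, SE 0.61). LYS20, a homocitrate synthase, had 9.13, 7.73 and 7.76 in R95A with rapamycin and 9.13, 7.20 and 7.26 in WT with rapamycin (0.34, SE 0.67). LYS1 had 8.48, 8.82 and 9.01 in R95A with rapamycin and 7.81, 8.77 and 8.89 in WT with rapamycin (0.28, SE 0.37). In all 3 genes the strains overlapped. For LEU9 and HOM3 the strain difference with rapamycin was -0.19 (95% interval -1.23 to 0.85) and 0.11 (-0.67 to 0.89).

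The replicate number carried as much of the variation of these genes as the group did. Pooled over the 47 genes, it took 42.9% of the sum of squares and the group 35.4%, against 41.4% and 37.0% over all tested probe sets. The median share per gene was 39.8% for the replicate number and 35.8% for the group, against 38.1% and 26.3% over all tested probe sets. In 15 genes the replicate number took more than 50% and in 11 genes the group did, which was not counted over all tested probe sets. ARG3, the ornithine carbamoyltransferase, was the extreme case with 97.2% for the replicate number. It had 6.96, 4.15 and 4.0 in R95A with rapamycin and 7.01, 4.41 and 3.75 in untreated R95A, and 6.39, 4.19 and 4.35 in WT with rapamycin and 6.56, 4.04 and 3.97 in untreated WT.

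In 6 genes all 4 replicate 1 arrays lay above the other 8, which 11.5% of tested probe sets did. They were GCN4, ARG3, ARG8, CPA1, LYS20 and LEU4, and 3 of them belong to the arginine pathway. In 3 genes, LYS9, THR4 and ARO7, they lay below the others, which 9.46% of probe sets did. HOM3 (2.33% replicate number, 81.0% group), LEU9 (2.64% and 71.2%), HIS1 (5.46% and 64.5%) and HIS7 (6.16% and 60.2%) had the smallest replicate shares of the 47.

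**Figure D5:**
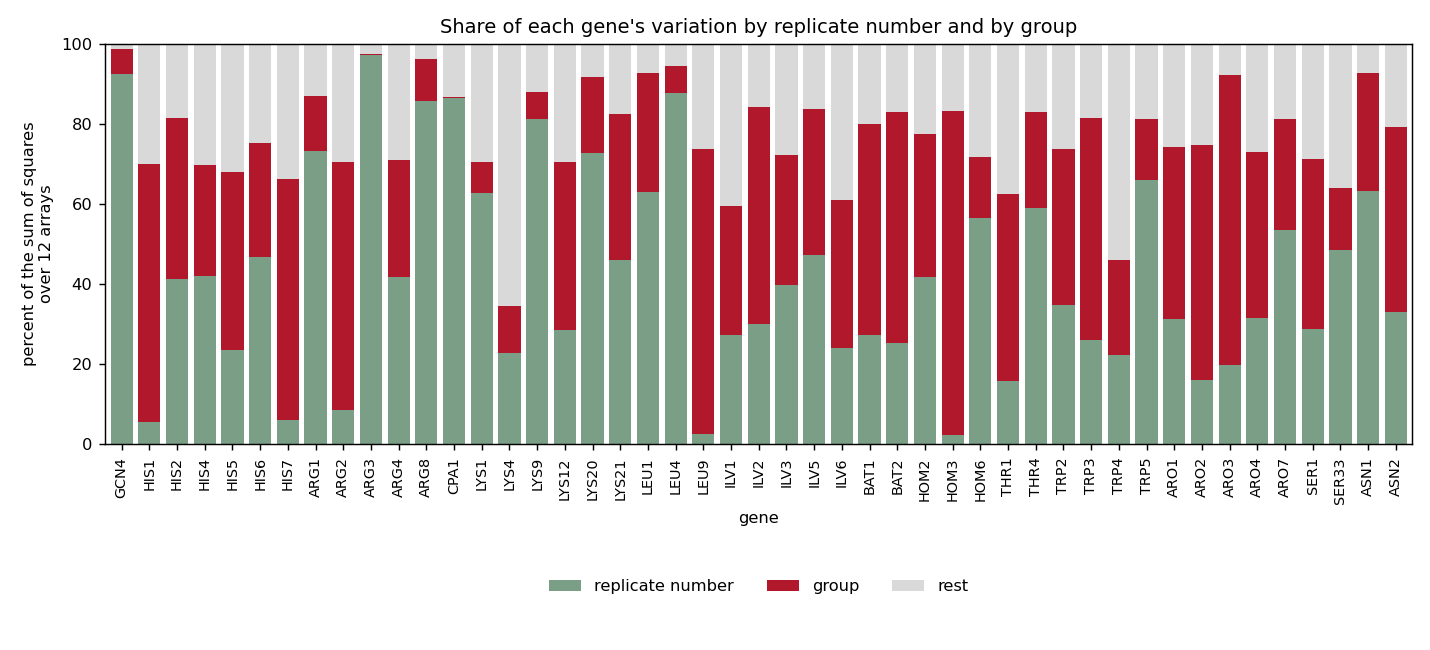
Percent of each gene's sum of squares over the 12 arrays taken by the replicate number (green), by the group (red) and by the rest (grey), for the 47 genes in pathway order. ARG3 stands at 97.2% for the replicate number and HOM3 at 2.33%.

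The 47 genes include 5 pairs of isozymes that catalyse the same step. BAT1, the mitochondrial branched chain aminotransferase, had 7.18, 7.70 and 7.22 in R95A with rapamycin and 7.46, 9.29 and 8.93 in untreated R95A, and 7.30, 7.53 and 7.27 in WT with rapamycin and 7.64, 8.51 and 7.61 in untreated WT. The log2 signal of BAT2 relative to BAT1 was 2.02 higher with rapamycin in R95A (SE 0.94, n = 3 arrays a group) and 1.32 higher in WT (SE 0.46). In WT the ratio of all 3 rapamycin arrays lay above that of all 3 untreated ones, and in R95A the groups overlapped through untreated replicate 1.

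LEU4, the main alpha-isopropylmalate synthase, had 10.87, 9.97 and 9.80 in R95A with rapamycin and 10.99, 10.02 and 9.83 in untreated R95A, and 10.56, 9.92 and 9.96 in WT with rapamycin and 10.63, 9.50 and 9.74 in untreated WT. The log2 signal of LEU9 relative to LEU4 changed by -2.04 with rapamycin in R95A (SE 0.87) and by -1.09 in WT (SE 0.54), and in both strains all rapamycin arrays lay below all untreated ones. That of ASN2 relative to ASN1 changed by -1.72 in R95A (SE 0.69) and by -1.44 in WT (SE 0.71), with no overlap in WT. For LYS20 relative to LYS21, the 2 homocitrate synthases, the values were -0.14 (SE 0.50) in R95A and 0.05 (SE 0.56) in WT. For ARO4 relative to ARO3, the DAHP synthases inhibited by tyrosine and by phenylalanine, they were -1.05 (SE 0.72) and -0.07 (SE 0.68), with overlap in both strains. The pairs were described after their values were seen and were not tested, and whether each probe set reads only its own isozyme was not tested.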

How the data were processed

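Per the study's methods, the authors imported the scans into FlexArray and applied RMA, which corrects background, normalizes by quantiles and gives log2 signals. The deposited values are these log2 signals for 10928 probe sets on 12 arrays, and all 12 columns were matched to a sample. The 5498 probe sets annotated with 1 S. cerevisiae gene (5449 genes) were tested. The others had no listed gene (3517), were annotated otherwise (1747, of which 1746 are S. pombe) or were controls (166). No scans were read here, and probe set coordinates and sequences are not used here.

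Group means were fitted with limma 3.58.1 in R 4.3.3, with variances moderated with a trend on mean signal and p-values adjusted by Benjamini-Hochberg over all tested probe sets. Fold changes are R95A minus WT or rapamycin minus untreated. The members and gene lists were chosen with earlier results of these data known, so lists are described by counts and medians and not tested. The rule for naming genes allowed every member, with every array's value for GCN4 and for the 3 highest and 3 lowest members of each comparison. Those named beside them were chosen after their values were seen.

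Alternatives were cyber-T (window 101, confidence 10), no variance trend, array weights, median, spike-in and quantile scaling, a filter on dim probe sets, only the arrays compared, a replicate block, averaging the probe sets of a gene and leaving out arrays. The fit was also run on simulated data, with each spread capped at the median spread and no effect of the replicate number. That does not show how it performs at the spread of these arrays. The deviations of same-numbered arrays from their group means correlated between the strains with rapamycin (0.88, 0.78 and 0.74 for replicates 1, 2 and 3) and between treated and untreated WT (0.84, 0.41 and 0.77), and the block changed no call there. No source says what the numbers stand for.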

Additional observations from a re-analysis of the deposited data

How the results depend on the processing

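No gene of the 47 was called by limma in the difference between the rapamycin responses, between the strains with rapamycin or with rapamycin in WT under any alternative tried. In R95A with rapamycin against untreated the count of 0 became 5 with cyber-T (4.62% of all tested probe sets), 14 with array quality weights (13 lower and 1 higher, 18.7%), 10 without the replicate 1 arrays of all 4 groups (13%) and 14 without replicate 1 of untreated R95A and replicate 3 of untreated WT together (13.8%), the last 2 chosen after seeing the data, and leaving out 1 array gave 0 to 12 (13.2% at the highest). Between the untreated strains leaving out 1 array gave 0 to 2 (1.07% at the highest). The median log2 fold changes kept their sign under the other settings with all 12 arrays, except that between the strains with rapamycin spike-in centring gave -0.32. Leaving out 1 array moved them between 0.29 and 0.83 (strains untreated), -0.08 and 0.18 (strains with rapamycin), -0.74 and -0.41 (rapamycin in R95A), -0.31 and 0.00 (rapamycin in WT) and -0.84 (without replicate 1 of untreated R95A) and -0.28 (without replicate 3 of R95A with rapamycin) for the difference between responses. At the study's threshold the 5 genes in R95A (5.15% of probe sets) became 11 with cyber-T (7.88%), 11 with weights (12.2%), 2 with spike-in centring (3.27%), 8 with the replicate block (7.95%), 10 and 14 under the 2 added alternatives (12.3% and 12.4%) and 2 to 11 without 1 array (11.9% at the highest). Between the untreated strains 0 became 1 with cyber-T (1.31%), quantile normalization (0.964%) or the block (1.38%), 4 with weights (2.89%), 4 and 2 under the added alternatives (4.29% and 2.29%) and 0 to 9 without 1 array (4.75% at the highest). In WT 0 became 1 with weights (3.31%), 2 without the pair of arrays (2.91%) and 0 to 1 without 1 array (1.64%). For the difference 0 became 1 with weights (0.291%), 1 under each added alternative (0.491% and 0.437%) and 0 to 2 without 1 array (0.946%, without replicate 1 of untreated R95A).

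With spike-in centring the median over all tested probe sets shifted by -0.18 between the untreated strains, -0.37 between the strains with rapamycin, -0.22 with rapamycin in R95A and -0.19 in the difference, where 2 of the 47 genes were positive and 45 negative against 7 and 40. It turned LYS1 (-0.0875) and LYS20 (-0.0215) between the strains with rapamycin and ILV5 (-0.0367) in the difference. GCN4 in the difference turned with median centring (-0.0238), spike-in centring (-0.18), quantile normalization (-0.0031) and without all replicate 1 arrays (-0.0856), and in R95A with rapamycin without the pair of arrays (0.13). ARG1 turned between the strains with rapamycin with weights (0.0386), and LYS1 between the untreated strains without the pair of arrays (0.0773). Leaving out 1 array gave GCN4 ranges of -0.39 to 0.10 (strains untreated), -0.44 to 0.0773 (strains with rapamycin), -0.39 to 0.13 (rapamycin in R95A), -0.33 to 0.15 (rapamycin in WT) and -0.29 to 0.24 (difference). It gave LYS1 -0.58 to 0.061 between the untreated strains, and between the strains with rapamycin LYS1 -0.0629 to 0.48, ARG1 -0.88 to 0.51, LYS20 -0.12 to 0.98, ASN2 -0.0827 to 0.78 and ILV3 -0.65 to 0.35, and ILV5 -0.13 to 0.57 in the difference. The cause of these changes was not tested.

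With the replicate number as a block limma called 0 of the 47 genes in each of the 5 comparisons, as without it. Whether the number pairs the untreated strains, or treated with untreated R95A, is not known. For replicates 1, 2 and 3 the correlations were 0.57, 0.83 and 0.06 between the untreated strains. Between treated and untreated R95A they were 0.42, 0.48 and 0.01. In both comparisons the closest array to replicate 1 or 2 carried the same number, while for replicate 3 it did not. Cyber-T compares 2 groups and was not run for the difference, nor was a fit of the compared arrays alone. With 3 arrays a group the standard errors of the 47 genes ran between 0.18 and 1.07 for a 2-group comparison, which limits what can be detected.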

Other observations

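Sets of genes around these pathways were described in the same way, by counts and medians with no list test. Of 19 other amino acid biosynthesis genes 16 had a tested probe set. Among the 16 were HIS3, the plasmid marker, LEU2, the marker of a deletion, and LYS2, which is mutated in both strains. The counts and medians of this list hold these genes and were not made without them. With rapamycin in R95A the median log2 fold change of the list was -0.46 and 12 of the 16 were negative, where 40.2% of all tested probe sets were. In this list 0 passed the limma test (0% of probe sets), 1 passed cyber-T as lower (4.38%) and 4 were lower at an unadjusted p under 0.05 (10.2%). Their lowest value was that of PRO1, a gene of proline synthesis, at -1.55, and their highest that of ARO9, an aromatic aminotransferase that is induced by aromatic amino acids, at 0.97. In WT the median was -0.06, PRO1 had -1.13 and ARO9 2.01, with 0 passing limma, 1 passing cyber-T as higher (0.127% of probe sets) and 1 higher at an unadjusted p under 0.05 (0.837%). Between the untreated strains the median was 0.47 and 14 of the 16 were positive, where 45.2% of all tested probe sets were. SER2, the phosphoserine phosphatase, was highest at 1.06.

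Of 17 genes that control Gcn4, its translation or its breakdown, 16 were measured (SRB10 was not). With rapamycin in R95A the median was -0.68 and 14 of the 16 were negative, where 40.2% of all tested probe sets were. In this list 0 passed the limma test (0% of probe sets) and 1 passed cyber-T as lower (4.38%). At an unadjusted p under 0.05 from limma 10 were lower (10.2%), and GCD10, a subunit of a tRNA methyltransferase, was lowest at -1.87. In WT the median was -0.39 and 11 of the 16 were negative, where 43.7% of all tested probe sets were. There 0 passed limma or cyber-T, 4 were lower at an unadjusted p under 0.05 from limma (3.44%) and GCD10 had -0.98. Between the untreated strains the median was 0.42, with GCN3, a subunit of the initiation factor eIF2B, highest at 0.89. All 10 genes of a list of pathway regulators were measured. With rapamycin in R95A 8 of the 10 were positive with a median of 0.29, where 59.8% of all tested probe sets were positive. At an unadjusted p under 0.05 from limma 2 were higher (7.15% of probe sets) and 1 was lower (10.2%). ARO80, the activator of ARO9, was highest at 0.82 and BAS1, which acts on histidine and purine genes, was lowest at -1.0. In WT the median was -0.09, with ARO80 at 0.49 and BAS1 at -0.61. Between the untreated strains 8 of the 10 were negative with a median of -0.31, where 54.8% of all tested probe sets were negative. The groups compared share their arrays between these comparisons.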
